A study of Homo sapiens with 30 samples.

Results

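The experiment described here was the acute removal of the nuclear speckle proteins SON and SRRM2 from K562 cells, a human leukaemia line of erythroid character. It was taken by sample title as the 3 knock-in libraries treated with dTAG-13 and the 3 knock-in libraries treated with DMSO, which are 6 of the 30 libraries of the series, and all genes and exon bins of these libraries were used. All 6 libraries came from 1 line, the speckle dTAG knock-in clone, in which a degron tag for dTAG-13 was placed at the start of SON and, in a second step on that clone, at the end of SRRM2, whose last residues are missing from the tagged protein. Cells received 500 nM dTAG-13, a compound that brings tagged proteins to a ubiquitin ligase for destruction, or 0.1% DMSO, each for 6 hr in 3 separate cultures. No library of the series came from cells without the tags given dTAG-13. Effects of the compound itself therefore cannot be told apart from loss of SON and SRRM2, nor loss of SON from loss of SRRM2. The readout was poly(A)-selected RNA, counted per gene and per exon bin after removal of duplicate reads by unique molecular identifiers.

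Nuclear speckles are bodies in the nucleus that are rich in splicing factors, SR proteins and the long noncoding RNA MALAT1. SON and SRRM2 are large proteins with long serine and arginine rich repeats that together form the scaffold of the speckle. Gene-dense, GC-rich and highly transcribed chromosome segments tend to lie near speckles, and SON is known as a factor that helps the splicing of introns in cell cycle and chromatin genes.

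SON and SRRM2 were depleted as proteins, so their RNA does not check the labels. SRRM2 (ENSG00000167978, chromosome 16, 2752626 to 2772538) had 1109, 1117 and 1168 CPM (counts scaled to library size, by TMM) in the dTAG-13 libraries, against 779, 834 and 935 CPM in the DMSO libraries. All 3 dTAG-13 libraries lay above the DMSO libraries, and SRRM2 RNA rose (log2 fold change 0.41 ± 0.07 SE, adjusted p = 0.00864 by edgeR's quasi-likelihood test). SON (ENSG00000159140, chromosome 21, 33543038 to 33577481) had 856, 855 and 809 CPM with dTAG-13, against 727, 782 and 764 CPM with DMSO, and passed only in the fit that pairs replicates by number (0.15 ± 0.05, adjusted p = 0.159, and 0.0177 with the replicate block). MALAT1, the abundant noncoding RNA of speckles, had 960, 886 and 964 CPM with dTAG-13, against 749, 734 and 754 CPM with DMSO, and rose (0.33 ± 0.05, adjusted p = 0.0078). NEAT1, the scaffold RNA of paraspeckles, had 60.2, 59.3 and 63.1 CPM with dTAG-13 and 60.2, 67.4 and 63.0 CPM with DMSO, and CTCF had 153, 151 and 163 CPM with dTAG-13 and 153, 149 and 161 CPM with DMSO. The ranges of both overlapped (NEAT1 −0.06 ± 0.07, adjusted p = 0.675, CTCF 0.01 ± 0.06, adjusted p = 0.923). Without DMSO replicate 1 the adjusted p of SRRM2 and of MALAT1 was 0.0601 each, and without dTAG-13 replicate 2 that of SRRM2 was 0.0506.

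Counts assigned to genes ranged from 17729165 to 20625817 in the dTAG-13 libraries, and from 16173008 to 16555568 in the DMSO libraries, so depth moved with the treatment. Gene counts of dTAG-13 replicate 3 lay farther from the other dTAG-13 libraries (chi-square per degree of freedom 14.28 and 9.92) than these lay from each other (2.11), and the DMSO pairs had 3.54 to 11.3. The erythroid markers of K562 summed to 758 to 893 CPM with dTAG-13 and 841 to 873 CPM with DMSO, with 1 of 10 below 1 CPM. Of 17 epithelial markers 13 were below 1 CPM in all 6 libraries and 2 of these were at 0, with a sum of 872 to 1088 CPM with dTAG-13 and 753 to 952 CPM with DMSO that came mainly from keratins. Of 16 lymphoid and fibroblast markers 11 were below 1 CPM, 2 of them at 0, and the sums overlapped (60.8 to 68.7 CPM with dTAG-13, 62.0 to 66.5 CPM with DMSO). These are bulk samples, in which fewer cells of a type and less RNA per cell cannot be told apart. Set against wild-type K562 cells given DMSO for 3 days, the knock-in cells given DMSO for 6 hr differed widely, with 4390 of 13907 genes higher (31.6%) and 4474 lower (32.2%) by edgeR (adjusted p under 0.05, change beyond 0.25 on the log2 scale). SON RNA was lower in the knock-in cells (−0.42 ± 0.07, adjusted p = 0.000453), as was SRRM2 RNA (−0.68 ± 0.10, adjusted p = 0.000252). In that comparison the clone, the time in DMSO and the batch cannot be told apart, so all further values are relative to DMSO in the same clone.

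With dTAG-13 more genes were lower than higher under TMM scaling, an order that turned with upper-quartile scaling. Of 14104 genes tested with edgeR 433 were lower (3.07%) and 220 were higher (1.56%) under the same thresholds, and 2686 had an unadjusted p under 0.05. Changes were modest, with medians of −0.56 for the lower genes and 0.56 for the higher genes on the log2 scale, and 40 genes lower and 34 higher by more than 1. With the replicate number as a block, 1110 genes were lower and 837 higher, and these included all 433 and all 220. The labels do not state such pairs, so all values with the block rest on an assumed pairing. DESeq2 gave 541 lower and 184 higher genes, with 412 and 163 shared. As for the balance of directions, 66.3% of the called genes were lower with TMM scaling, against 47.5% with upper-quartile scaling (313 lower and 346 higher), which moved the median of all genes by less than 0.1. The counts also depended on single libraries. They fell to 132 lower and 47 higher without dTAG-13 replicate 2 and to 153 and 46 without DMSO replicate 1, and were 214 and 96 without dTAG-13 replicate 1, 757 and 296 without dTAG-13 replicate 3, 348 and 123 without DMSO replicate 2 and 328 and 211 without DMSO replicate 3. Of the 433 and 220 genes, 125 of the lower and 34 of the higher passed in all 6 of these fits. Each kept its direction in all 6. The groups did not overlap for any of these genes, so leaving out 1 library could hardly turn it. For single genes the highest adjusted p with 1 library left out is given beside the value.

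**Figure D1:**
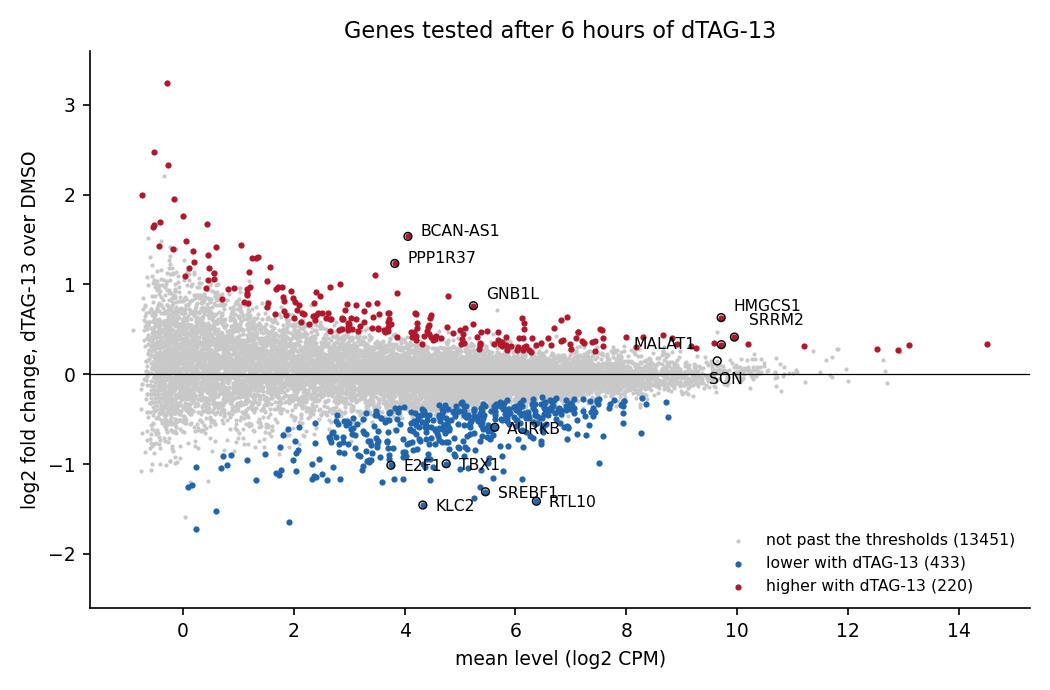
Log2 fold change (dTAG-13 over DMSO) of each of the 14104 genes tested against mean expression in log2 CPM, with 3 libraries in each group. Genes lower or higher under the thresholds of the text are coloured, 433 lower and 220 higher with TMM scaling (313 and 346 with upper-quartile scaling).

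The genes with the deepest falls had unrelated functions. KLC2 (ENSG00000174996, chromosome 11, 66257294 to 66267860), a kinesin light chain, had 9.99, 9.07 and 13.2 CPM with dTAG-13, against 29.2, 27.1 and 32.6 CPM with DMSO (−1.46 ± 0.14, adjusted p = 0.000745, at most 0.00764 with 1 library left out). STARD8 (ENSG00000130052, chromosome X, 68647666 to 68725842), a GTPase activating protein, had 20.04, 20.6 and 23.6 CPM with dTAG-13, against 53.5, 54.0 and 59.1 CPM with DMSO (−1.37 ± 0.09, adjusted p = 9.62e-05, at most 0.00217). SREBF1 (ENSG00000072310, chromosome 17, 17810399 to 17837002), a transcription factor of lipid synthesis, had 22.7, 24.6 and 28.8 CPM with dTAG-13, against 61.9, 58.3 and 68.4 CPM with DMSO (−1.31 ± 0.10, adjusted p = 0.000321, at most 0.00498). In each of these the lowest DMSO library was more than 2 times the highest dTAG-13 library, and replicate 3 was the highest in both groups.

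The other large falls were ANKRD52, a regulatory subunit of protein phosphatase 6 (24.4 ± 3.78 CPM with dTAG-13 and 58.4 ± 5.65 CPM with DMSO, SD, n = 3 each, −1.26), DVL2, a Dishevelled protein of Wnt signalling (7.35 ± 0.51 and 16.9 ± 1.1 CPM in the same order, −1.20) and SYNGR3, a synaptic vesicle protein (13.6 ± 1.48 and 30.7 ± 1.91 CPM, −1.18). SHROOM1, a member of the Shroom cytoskeletal family (−1.18 ± 0.16), and DGKQ, a diacylglycerol kinase (−1.18 ± 0.23), were lower as well. Of these, DGKQ alone did not pass with every library left out (adjusted p = 0.0178, and 0.0955 without dTAG-13 replicate 2). KLC2, SREBF1, ANKRD52 and SYNGR3 overlap annotated genes on the opposite strand. Whether reads were counted by strand is not stated in the sources used here, so reads of such pairs cannot be told apart. The same holds for SON, SRRM2 and MALAT1 above and for each gene said below to be lower or higher with dTAG-13, other than RTL10, NAA80, HYAL3, BCAN-AS1, ZNF251, U2AF1L4, AURKB, BTG2, CDK9, CDT1, DIDO1, E2F1, E2F4, EGR1, EPOR, ESPL1, FANCE, GATA1, H2AC11, H4C14, KLF6, LUC7L3, MED12, MEN1, MT-CO2, MT-ND4, MT-ND4L, MT-ND5, NELFA, NSDHL, POLD1, RBBP6, RBM39, SNRNP48, SRRM1, TRA2A, TRIB3, UPF1, XAB2 and ZDHHC8. RAD54L and TACC3 overlap genes that were lower too (LRRC41 and TMEM129).

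The pair of falls left belonged to genes that share a start with a gene that rose. RTL10 (ENSG00000215012, chromosome 22, 19846138 to 19854896, minus strand), a gene derived from a retrotransposon, had the smallest p of all genes, with 44.7, 46.8 and 45.1 CPM with dTAG-13, against 120, 120 and 124 CPM with DMSO (−1.41 ± 0.06, adjusted p = 9.64e-06, at most 0.000413). GNB1L (ENSG00000185838, minus strand), a WD repeat protein related to G protein beta subunits, begins 43 bases upstream of it and overlaps all 8759 bases of RTL10. GNB1L had 42.9, 45.9 and 53.1 CPM with dTAG-13, against 27.6, 28.6 and 27.6 CPM with DMSO (0.76 ± 0.09, adjusted p = 0.00215, at most 0.0208). NAA80 (ENSG00000243477, chromosome 3, 50296402 to 50299416, minus strand), the actin N-terminal acetyltransferase, had 3.14, 3.01 and 3.12 CPM with dTAG-13, against 7.71, 6.15 and 6.996 CPM with DMSO (−1.17 ± 0.14, adjusted p = 0.00192, at most 0.0201). HYAL3, a gene of the hyaluronidase family that starts 11 bases from NAA80 on the same strand and overlaps it over 3004 bases, had 3.71, 3.22 and 3.91 CPM with dTAG-13, against 2.02, 1.54 and 1.70 CPM with DMSO (1.04 ± 0.17, adjusted p = 0.00922, at most 0.0356). In both pairs the shorter gene was lower and the longer gene higher in all 3 dTAG-13 libraries. Reads in shared exons may belong to either gene, and reads in several genes were set apart from the gene counts. Such reads are missing from these values, so the size of each change is uncertain.

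The promoter window of RTL10 (RefSeq, GRCh38.p14, chr22:19854825-19855124, minus strand, from 250 bases before to 50 after its start) also covers the start of GNB1L, and is shown because the same 300 bases precede a gene that fell and one that rose. CG dinucleotides are in capitals, 44 in all, and the window is 73.3% GC.
RTL10: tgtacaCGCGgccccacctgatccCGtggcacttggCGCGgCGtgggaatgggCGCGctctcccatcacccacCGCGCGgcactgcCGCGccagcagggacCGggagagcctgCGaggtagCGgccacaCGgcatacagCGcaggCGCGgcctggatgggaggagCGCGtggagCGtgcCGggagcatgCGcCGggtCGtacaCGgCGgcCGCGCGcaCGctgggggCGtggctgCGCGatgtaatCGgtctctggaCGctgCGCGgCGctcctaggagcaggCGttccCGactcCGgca

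Among the 12 pairs of overlapping genes in which both were called, 9 moved in the same direction. The pairs that moved apart were GNB1L with RTL10 and HYAL3 with NAA80 on the same strand, and GNB1L with TBX1 on opposite strands. These pairs were picked out after their values were seen.

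The largest rises included many noncoding RNAs. BCAN-AS1 (ENSG00000272068, chromosome 1, 156637783 to 156641004), a single-exon long noncoding RNA, had 24.2, 25.3 and 23.6 CPM with dTAG-13, against 8.33, 7.63 and 9.25 CPM with DMSO (1.53 ± 0.10, adjusted p = 9.62e-05, at most 0.00287). ZNF251 (chromosome 8, 144720907 to 144756417), a zinc finger gene, had 14.5, 14.2 and 15.7 CPM with dTAG-13, against 6.37, 6.83 and 7.42 CPM with DMSO (1.105 ± 0.11, adjusted p = 0.000759, at most 0.00894). PPP1R37, a regulatory subunit of protein phosphatase 1, had 14.9, 16.5 and 26.8 CPM with dTAG-13, against 7.84, 7.51 and 9.49 CPM with DMSO (1.23 ± 0.21, adjusted p = 0.0108, and 0.0601 without DMSO replicate 1), and its dTAG-13 replicate 3 lay well above the other two. U2AF1L4, a relative of the small U2AF subunit that recognises the 3′ splice site, had 4.04, 4.01 and 4.35 CPM with dTAG-13, against 1.84, 2.40 and 2.07 CPM with DMSO (0.97 ± 0.16, adjusted p = 0.0078, and 0.0518 without DMSO replicate 1).

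The remaining genes with the largest rises were ATP6V1FNB (1.44 ± 0.19), SLC25A25-AS1 (1.19 ± 0.19), SDCBP2-AS1 (1.01 ± 0.15), MORN1 (0.97 ± 0.13) and SP2-AS1 (0.97 ± 0.14). All but ZNF251, HYAL3, U2AF1L4 and BCAN-AS1 overlap an annotated gene on the opposite strand. SLC25A25-AS1 had an adjusted p of 0.00803, and of 0.052 without DMSO replicate 1. The plot of levels by library shows selected genes of this and the following paragraphs.

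**Figure D2:**
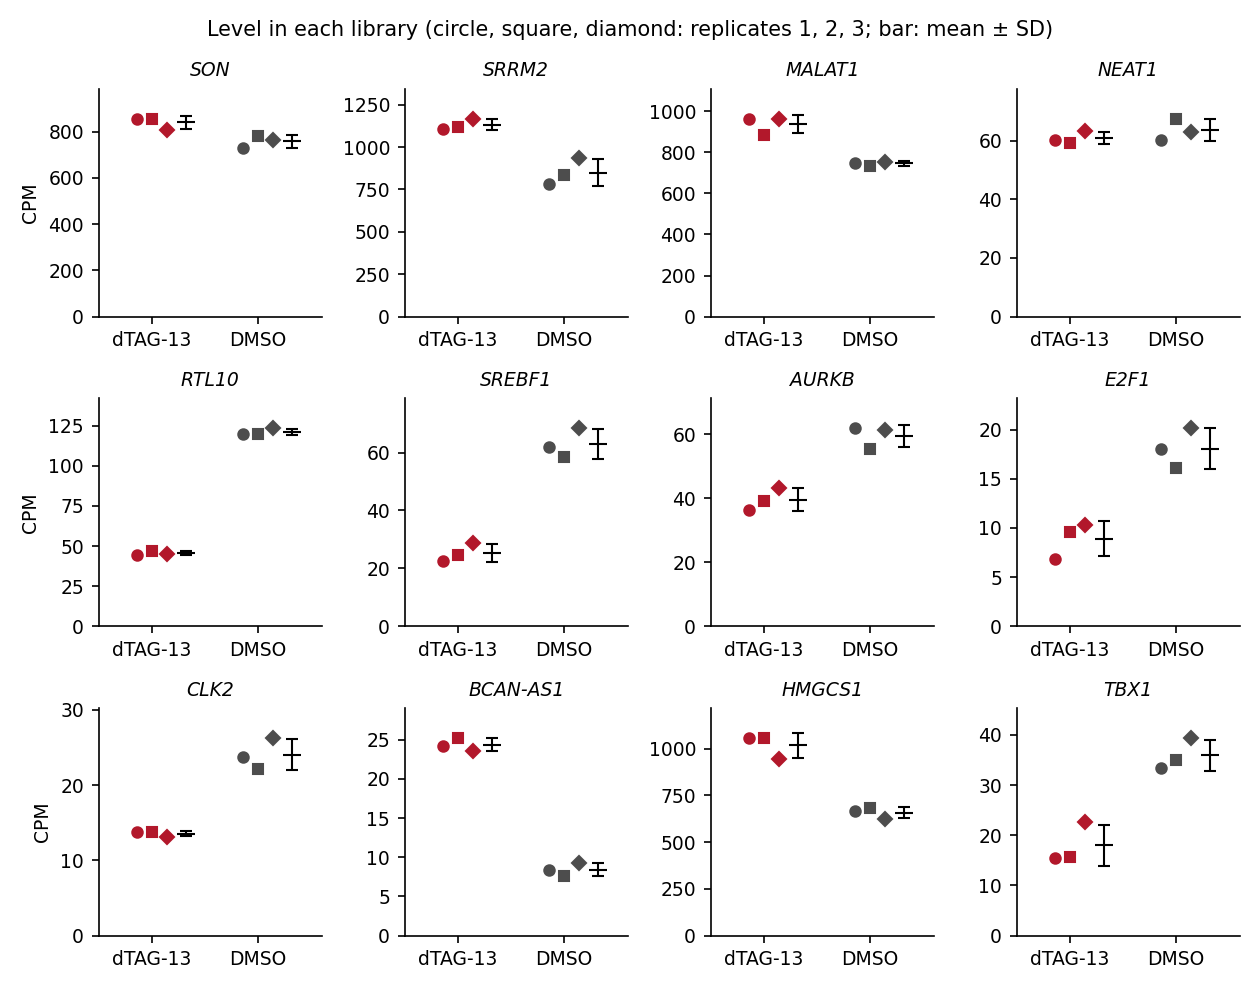
Expression in CPM of 12 genes in each library, with the 3 dTAG-13 libraries left and the 3 DMSO libraries right in each panel, circles, squares and diamonds for replicates 1, 2 and 3 and bars for the mean ± SD. RTL10, SREBF1, AURKB, E2F1, CLK2 and TBX1 lie lower with dTAG-13, BCAN-AS1, HMGCS1, MALAT1 and SRRM2 lie higher, and the values of NEAT1 overlap.

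Genes were next grouped by role. The lists and their members were chosen with earlier results of these data known. Their shares beside those of all genes are therefore descriptions, and no list was tested as a set. The words rose and fell are used here for an adjusted p under 0.05 whatever the size, which 1.57% of all genes tested did upward and 3.09% downward (8.33% and 13.4% with the replicate block). Among 36 proteins of the nuclear speckle, 6 fell (16.7%) and SRRM2 rose, and 12 fell and 6 rose with the block. NKTR, a cyclophilin with an SR domain, had 103, 94.9 and 95.8 CPM with dTAG-13, against 138, 151 and 148 CPM with DMSO (−0.58 ± 0.07, adjusted p = 0.0015, at most 0.0228). SREK1, an SR-related splicing regulator (−0.43 ± 0.06), LUC7L3, a U1-associated factor (−0.37 ± 0.06), SRRM1, a partner of SRRM2 (−0.33 ± 0.07), SRSF11 (−0.29 ± 0.06) and PNN, pinin of the exon junction (−0.39 ± 0.10), were the others. Among 13 SR factors, which bind exonic enhancers, TRA2A (−0.33 ± 0.06, adjusted p = 0.016) and SRSF11 (adjusted p = 0.0271) fell and 8 fell with the block. SRSF1 averaged 115 CPM with dTAG-13 and 154 CPM with DMSO but passed only with the block (−0.42 ± 0.16, adjusted p = 0.171, and 9.91e-07 with the block). The list of speckle proteins had 2 lower genes without dTAG-13 replicate 2 or DMSO replicate 1 and 10 without dTAG-13 replicate 3. The SR factors had 0 without dTAG-13 replicate 1, dTAG-13 replicate 2 or DMSO replicate 1, and 4 without dTAG-13 replicate 3.

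CLK2, a kinase that phosphorylates SR proteins and sits in speckles, had 13.7, 13.8 and 13.1 CPM with dTAG-13, against 23.7, 22.1 and 26.3 CPM with DMSO (−0.83 ± 0.09, adjusted p = 0.0015, at most 0.0172). The groups lay far apart, and CLK2 had the largest change of the 17 kinases and phosphatases of SR proteins. PRPF4B, a kinase of the spliceosome, was the other member to pass (5 fell and 2 rose with the block) and rose (0.30 ± 0.05, adjusted p = 0.0119, and 0.0743 without dTAG-13 replicate 2). Of 61 core spliceosome proteins 4 fell (6.56%, with 2 rising and 8 falling with the block). They included XAB2, a scaffold protein of the active spliceosome (35.3 ± 3.04 CPM with dTAG-13, 58.1 ± 6.36 CPM with DMSO, −0.72 ± 0.10, adjusted p = 0.00419, at most 0.0326), SNRNP48 of the minor spliceosome (70.9 ± 3.01 CPM with dTAG-13, 109 ± 5.24 CPM with DMSO, −0.61 ± 0.07, adjusted p = 0.00147, at most 0.0204) and the U1-associated PRPF39 (−0.33 ± 0.08). The adjusted p of PRPF39 was 0.0477, and 0.204 without DMSO replicate 1, and 2 members fell without dTAG-13 replicate 1.

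Of 49 RBM and hnRNP proteins, of which 5 fell and 6 rose with the block, RBM25 and RBM39, both SR-related and resident in speckles, fell (−0.43 ± 0.06, adjusted p = 0.00518, at most 0.0476, and −0.35 ± 0.05, adjusted p = 0.0058, at most 0.0583). RBM15, a protein of the complex that deposits N6-methyladenosine, rose (0.47 ± 0.07, adjusted p = 0.00469, at most 0.0457). UPF1, the helicase of nonsense-mediated decay, had 84.0, 85.3 and 103 CPM with dTAG-13, against 127, 121 and 150 CPM with DMSO and was the 1 of 30 export, exon junction and decay factors to pass (−0.55 ± 0.10, adjusted p = 0.0155, and 0.0963 without dTAG-13 replicate 2). With the block 6 of these fell and 4 rose. EXOSC10, a nuclear exosome nuclease, had 142, 143 and 140 CPM with dTAG-13, against 201, 187 and 200 CPM with DMSO (−0.47 ± 0.06, adjusted p = 0.0027, at most 0.0317). PAXBP1, RBBP6 and CPSF4 also fell, and CSTF3 and PCF11 rose, among the 37 genes of cleavage, polyadenylation and nuclear decay, of which 7 fell and 3 rose with the block (adjusted p from 0.0379 for CSTF3 to 0.0489 for PCF11). With 1 library left out these reached 0.155 (CPSF4) to 0.229 (PAXBP1), so all 5 lost the call.

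Of 43 RNA polymerase II and elongation genes 2 fell (4.65%, beside 3.09% of all genes tested). NELFA, a subunit of the negative elongation factor, had 22.8, 24.2 and 27.6 CPM with dTAG-13, against 43.96, 37.0 and 43.6 CPM with DMSO (−0.74 ± 0.10, adjusted p = 0.00373, at most 0.032). CDK9, the kinase of P-TEFb, had 10.6, 12.4 and 12.7 CPM with dTAG-13, against 18.4, 19.01 and 21.4 CPM with DMSO (−0.72 ± 0.11, adjusted p = 0.00547, at most 0.0322). With the block 8 members fell and 2 rose. Of 32 Mediator subunits 3 fell (9.38%), and 8 with the block. MED15, a tail subunit, had 113, 112 and 140 CPM with dTAG-13, against 238, 216 and 273 CPM with DMSO, so no dTAG-13 library came near the DMSO range (−0.99 ± 0.11, adjusted p = 0.00125, at most 0.0131). MED24 (−0.45 ± 0.07, adjusted p = 0.00718) and MED12 (−0.46 ± 0.10, adjusted p = 0.0316) were the others, and both lost the call without dTAG-13 replicate 2 (0.0583 for MED24 and 0.131 for MED12).

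Genes of histone H3 lysine 4 methylation and chromatin remodelling moved both ways, with 5 of 35 lower (14.3%) and 2 higher (9 and 8 with the block, and 2 lower without dTAG-13 replicate 2). MEN1, a subunit of the KMT2A complex, had 48.8, 50.2 and 56.1 CPM with dTAG-13, against 77.6, 73.0 and 80.5 CPM with DMSO (−0.58 ± 0.08, adjusted p = 0.00362, at most 0.0332). SMARCC2, a core BAF subunit, fell as well (−0.57 ± 0.08, adjusted p = 0.00419, at most 0.0364), as did HCFC1 (−0.69 ± 0.12, adjusted p = 0.00922, and 0.0623 without dTAG-13 replicate 2). KMT2A itself had 154, 162 and 148 CPM with dTAG-13, against 103, 124 and 123 CPM with DMSO and rose (0.41 ± 0.08, adjusted p = 0.021, and 0.125 without dTAG-13 replicate 2). CHD8 (−0.40) and KMT2B (−0.50) were lower and KMT2C (0.33) higher, each losing the call without dTAG-13 replicate 2. Among 19 CTCF, cohesin and loop genes only STAG1, a cohesin subunit, passed, with 2 lower with the block (−0.29 ± 0.07, adjusted p = 0.0425, and 0.209 without dTAG-13 replicate 2).

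Cell cycle genes that passed without the block were lower. Of 37 mitosis genes 4 fell (10.8%), against 12 lower and 1 higher with the block. AURKB, the kinase of the chromosomal passenger complex, had 36.2, 39.1 and 43.2 CPM with dTAG-13, against 61.8, 55.5 and 61.1 CPM with DMSO (−0.59 ± 0.09, adjusted p = 0.00509, at most 0.0412). KIF20A (−0.39 ± 0.06) and KIF2C (−0.29 ± 0.06), both mitotic kinesins, and ESPL1, separase (−0.53 ± 0.09), were the others. Of 32 centrosome and tubulin genes 4 fell (12.5%), among them CEP131 (−0.98 ± 0.20), TUBG1, gamma-tubulin (−0.46 ± 0.08), and TACC3 (−0.40 ± 0.09). None of the 4 kept its call without dTAG-13 replicate 2, with adjusted p-values from 0.0825 for TUBG1 to 0.175 for TACC3, and 8 members fell and 1 rose with the block. The G1/S factor E2F1 had 6.85, 9.597 and 10.3 CPM with dTAG-13, against 18.002, 16.1 and 20.1 CPM with DMSO (−1.01 ± 0.15, adjusted p = 0.00558, at most 0.0325). CDT1, a licensing factor (−0.48 ± 0.08), and POLD1, the catalytic subunit of polymerase delta (−0.49 ± 0.11), were the other 2 of 46 S phase genes to fall, and 10 fell and 1 rose with the block. RAD54L, a recombination motor protein, had 22.1, 24.1 and 22.4 CPM with dTAG-13, against 39.6, 41.2 and 41.0 CPM with DMSO (−0.83 ± 0.08, adjusted p = 0.00063, at most 0.00764). FANCE, of the Fanconi anaemia core complex, was also lower (−0.53 ± 0.11) among 33 DNA repair genes, of which 3 fell (9.09%) and 7 with the block. Leaving out dTAG-13 replicate 2 ended the calls of KIF20A, ESPL1, KIF2C, CDT1, POLD1 and FANCE (adjusted p from 0.051 for ESPL1 to 0.176 for POLD1). Either dTAG-13 replicate 2 or DMSO replicate 1 left 1 lower gene in the mitosis and the S phase lists.

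Erythroid genes were described to see whether K562 identity moved. Of 33 tested, 3 regulators fell (9.09%), and 10 fell and 4 rose with the block. E2F4, an E2F repressor needed for red cell maturation, had 61.4, 61.9 and 74.1 CPM with dTAG-13, against 105, 101 and 125 CPM with DMSO (−0.74 ± 0.10, adjusted p = 0.00373, at most 0.0308). EPOR, the erythropoietin receptor (−0.55 ± 0.11, adjusted p = 0.0183), and GATA1, the master erythroid factor (−0.38 ± 0.08, adjusted p = 0.0354), were lower, but neither kept its call without DMSO replicate 1 (0.108 for EPOR and 0.174 for GATA1). The fetal globin HBG2, which shares reads with its near-identical copy HBG1, averaged 184 CPM with dTAG-13 and 179 CPM with DMSO (0.04 ± 0.07, adjusted p = 0.804). NBEAL2, needed for platelet alpha granules, fell among 6 megakaryocyte genes (−0.48 ± 0.09, adjusted p = 0.017, and 0.11 without dTAG-13 replicate 2). SLC2A1, the glucose transporter GLUT1, was the 1 of 27 hypoxia and glycolysis genes to pass (2 fell and 3 rose with the block) and fell (114 ± 8.98 CPM with dTAG-13, 162 ± 6.51 CPM with DMSO, −0.51 ± 0.07, adjusted p = 0.00445, at most 0.0391).

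Of 24 cholesterol synthesis and SREBF2 target genes tested 5 rose (20.8%), and 20 rose with the block. Of the 24, 23 had a positive log2 fold change, and the median was 0.27, against −0.01 over all genes. HMGCS1, the synthase of HMG-CoA, had 1057, 1059 and 943 CPM with dTAG-13, against 666, 684 and 626 CPM with DMSO (0.63 ± 0.06, adjusted p = 0.000889, at most 0.0109). FDFT1, squalene synthase (0.34 ± 0.05), MVK, mevalonate kinase (0.51 ± 0.12), and NSDHL, a sterol dehydrogenase (0.32 ± 0.07), were among the other members to rise. INSIG1, a sterol sensor of the endoplasmic reticulum, averaged 250 CPM with dTAG-13 and 207 CPM with DMSO, and passed only with the block (adjusted p = 0.171, and 0.000111 with the block). Leaving out 1 library gave 1 rising gene (without dTAG-13 replicate 2 or DMSO replicate 1) to 8 (without dTAG-13 replicate 3). SREBF2, the factor that controls this pathway, averaged 184 CPM with dTAG-13 and 171 CPM with DMSO (0.10 ± 0.09, adjusted p = 0.571), beside the fall of its relative SREBF1.

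All 13 mitochondrially encoded mRNAs had positive log2 fold changes, with a median of 0.28, and the groups did not overlap for 12 of them, which 12% of all genes tested did upward. MT-ND5, a complex I subunit, had 2489, 2721 and 2621 CPM with dTAG-13, against 2051, 1960 and 2292 CPM with DMSO (0.31 ± 0.07, adjusted p = 0.0252, and 0.147 without DMSO replicate 1). MT-ND4L, MT-CO2 and MT-ND4 rose as well, and all 13 rose with the block, but the count was 0 without dTAG-13 replicate 2, DMSO replicate 1 or DMSO replicate 2, and 12 without DMSO replicate 3. The 10 most abundant genes of each library also took more of its counts (8.69 ± 0.37% with dTAG-13, 7.51 ± 0.17% with DMSO, exact 2-sided permutation test p = 0.1, the smallest that 3 against 3 libraries allow). The part of RNA composition in these rises was not tested.

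Replication-dependent histone genes, most of whose transcripts end in a stem-loop and lack poly(A), had a median log2 fold change of 0.23 over the 41 tested. H2AC11 (76.3 ± 3.18 CPM with dTAG-13, 57.6 ± 2.86 CPM with DMSO, 0.41 ± 0.07, adjusted p = 0.0108), H2BC5 (0.33), H2BC8 (0.33) and H4C14 (0.80, 2.53 ± 0.055 CPM with dTAG-13 and 1.45 ± 0.14 CPM with DMSO) rose, as did 15 with the block. H4C14 belongs to a family of nearly identical genes, so its reads may be shared with copies, and DESeq2 did not call it (adjusted p = 0.153). Each of these calls was lost without dTAG-13 replicate 2. Of 41 immediate-early genes 4 rose (9.76%), against 14 higher and 1 lower with the block. EGR1 had 153, 156 and 178 CPM with dTAG-13, against 124, 106 and 122 CPM with DMSO (0.47 ± 0.08, adjusted p = 0.0125, and 0.0581 without dTAG-13 replicate 2), and IER2 (0.51 ± 0.12), BTG2 (0.39 ± 0.09) and KLF6 (0.36 ± 0.07) were the others. All 4 lost the call without dTAG-13 replicate 2.

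Few stress genes passed without the block and more with it. HSF1, the heat shock factor, fell among 34 heat shock genes, of which 4 fell and 3 rose with the block (57.5 ± 4.16 CPM with dTAG-13, 78.9 ± 5.88 CPM with DMSO, −0.46 ± 0.08, adjusted p = 0.0126, and 0.0901 without dTAG-13 replicate 2). TRIB3 rose among 29 integrated stress response genes, of which 5 rose and 1 fell with the block (0.27 ± 0.06, adjusted p = 0.0379, and 0.195 without dTAG-13 replicate 2), and BTG2 was the 1 of 25 p53 targets to pass, against 6 higher and 3 lower with the block. SNHG12 was the 1 of 24 snoRNA host genes to pass, against 5 lower and 1 higher with the block (−0.55 ± 0.13, adjusted p = 0.0499, lost with any library left out). MALAT1 was the 1 of 13 nuclear noncoding RNAs and paraspeckle genes to pass, and 6 rose with the block. By edgeR 0 of 79 cytosolic ribosomal protein genes passed, with 0 at an unadjusted p under 0.05 and 0 by DESeq2, and the block gave 1 higher and 2 lower. By edgeR 0 of 20 cytosolic aminoacyl-tRNA synthetases passed as well, 4 having an unadjusted p under 0.05, and DESeq2 gave 2 lower genes and the block 5. Among markers of other cell types, edgeR passed 0 of 5 epithelial genes (0 at an unadjusted p under 0.05, 0 by DESeq2, 2 higher with the block) and 0 of 4 lymphoid or fibroblast genes (1, 0 and 1 higher in the same order).

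The share of genes lowered rose with GC content, exon number and gene density. Among protein-coding genes split into quintiles by the GC content of the gene (GENCODE 44 annotation), 1.33%, 0.845%, 1.65%, 5.38% and 9.65% were lower from the GC-poorest to the GC-richest quintile. By exon number the shares were 0.889%, 1.56%, 3.69%, 5.12% and 7.61%. By the number of coding genes that start within 250 kb they were 1.69%, 1.38%, 2.67%, 5.34% and 7.78%, and by gene length 4.98%, 5.47%, 4.67%, 2.45% and 1.29% from the shortest to the longest quintile. GC content and exon number went together in the extremes: within the tertile of genes with most exons, 20.3% of the GC-richest quintile was lower, against 1.42% of the GC-poorest, while within the tertile with fewest exons the same shares were 3.21% and 0.656%. Within tertiles of expression, 6.73%, 14.2% and 9.64% of the GC-richest quintile was lower, against 0.188%, 1.83% and 1.56% of the GC-poorest, so the order held at low, middle and high levels. Over all genes the GC-richest quintile had 8.06% lower and the GC-poorest 1.14%, and with the block these were 17.05% and 6.78%. Leaving out 1 library gave 2.95% to 15.9% for the GC-richest and 0.107% to 1.78% for the GC-poorest quintile. The median log2 fold change hardly differed between GC quintiles among coding genes (−0.04 in the GC-richest and −0.08 in the GC-poorest). Over all coding genes, the Spearman rho with log2 fold change was 0.07 for GC content and −0.14 for exon number. It was −0.02 for coding gene starts within 250 kb, 0.04 for gene length and −0.13 for mean log2 CPM. Exon number was not looked at within tertiles of expression. Genes are not replicates, and these shares and rho values are descriptions without a test.

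**Figure D3:**
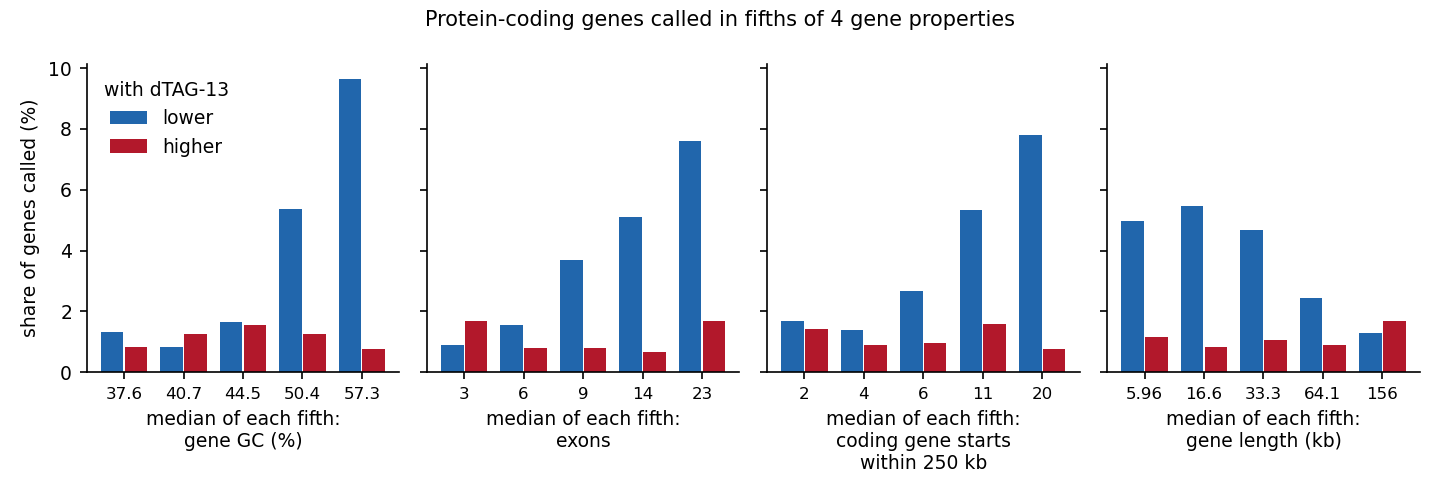
Share of protein-coding genes lower and higher with dTAG-13 against DMSO, in percent, by quintiles of gene GC content, exon number, coding gene starts within 250 kb and gene length, as bars from 0. The share of lower genes climbs to 9.65% in the GC-richest quintile and to 7.61% in the quintile with most exons.

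The lower genes had a median of 15 exons and 53.5% GC, and the higher genes had 4 exons and 44.3% GC. Over all genes tested these were 7 exons and 44.7% GC. The low exon number of the higher genes went with their biotypes, as 75 of the 220 were long noncoding RNAs. Among protein-coding genes the median was 15 exons for the lower, 9 for the higher and 9 for all tested. Among long noncoding RNAs it was 3 for the higher and 3 for all tested. By chromosome the share of lower genes was 5.61% on chromosome 17, 5.42% on chromosome 11, 4.84% on chromosome 16, 4.37% on chromosome 22 and 4.36% on chromosome 19, all rich in genes. On chromosome 13, which is poor in genes, 0 of 255 genes were lower by edgeR at these thresholds. Promoter windows of 300 bases from RefSeq were found for 356 lower genes and 125 higher genes. The lower genes had a median of 29 CG dinucleotides and the motif TATAAA in 1.12% of windows. The higher genes had 25 and 7.2%, and all 9925 tested genes with a window 27 and 3.45%. Windows were searched as given, without the reverse complement of the motif. The motif was in 7.71% of the windows of all 27305 promoters.

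More long noncoding RNAs were higher than lower, the reverse of coding genes. Of 1444 tested 75 were higher (5.19%) and 6 lower (0.416%), with a median log2 fold change of 0.22, while of 11241 protein-coding genes 127 were higher (1.13%) and 424 lower (3.77%). The level of the long noncoding RNAs was low, with a median of 1.71 CPM in DMSO over all tested and 4.55 CPM for those higher. Weakly expressed genes shifted upward in general. The median log2 fold change was 0.14 in the quintile of lowest expression over all genes and 0.08 in that of coding genes. In that coding quintile 0.934% were higher and 1.29% lower. Over all genes the Spearman rho of log2 fold change with mean log2 CPM was −0.23. The part of expression level in the shift was not tested. Of the 75, 34 had a tested gene on the opposite strand, in 38 pairs, some of which share a partner. By edgeR the partner was lower in 0 and higher in 0 of these 38 pairs, and the median log2 fold change of the partner over the pairs was 0.03. Reads outside annotated genes moved in the same direction. They made up 5.00%, 5.08% and 5.14% of uniquely aligned reads with dTAG-13, against 4.36%, 4.69% and 4.41% with DMSO, a difference of 0.588 percentage points (exact 2-sided permutation test p = 0.1, the smallest that 3 against 3 allow). The share of reads in more than 1 gene did not separate the groups (4.17 ± 0.023% with dTAG-13, 4.19 ± 0.12% with DMSO, exact 2-sided permutation test p = 0.9).

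On chromosome 22 several called genes lay side by side around TBX1, a T-box factor of heart and pharyngeal development. This neighbourhood was chosen after its values were seen. Of 13 tested genes over 433.505 kb, 6 were lower, 1 was higher and 6 did not pass. TBX1 (ENSG00000184058, 19756703 to 19783593) had 15.6, 15.7 and 22.7 CPM with dTAG-13, against 33.4, 35.0 and 39.4 CPM with DMSO (−0.996 ± 0.14, adjusted p = 0.00469, at most 0.032). TRMT2A, a tRNA methyltransferase (20111875 to 20117392), had 24.1, 25.6 and 31.3 CPM with dTAG-13, against 54.8, 53.1 and 62.5 CPM with DMSO (−1.07 ± 0.11, adjusted p = 0.000955, at most 0.0113). ARVCF, a catenin (−0.86 ± 0.14, adjusted p = 0.00908), ZDHHC8, a palmitoyltransferase (−0.69 ± 0.13, adjusted p = 0.0141), and DGCR8, the partner of DROSHA in microRNA processing (−0.39 ± 0.07, adjusted p = 0.0123), were lower, and none of these kept its call without dTAG-13 replicate 2 (0.0604, 0.0843 and 0.0957 in that order). SEPTIN5 (0.77, adjusted p = 0.0645) and TANGO2 (0.24, adjusted p = 0.233) passed only with the block (0.000269 for SEPTIN5 and 0.00151 for TANGO2). Between them lay genes whose groups overlapped, such as TXNRD2 (75.2 ± 7.81 CPM with dTAG-13, 72.0 ± 2.81 CPM with DMSO) and RANBP1 (1346 ± 49.7 CPM with dTAG-13, 1315 ± 25.9 CPM with DMSO). RANBP1 overlaps TRMT2A over 1455 bases on the opposite strand, and its log2 fold change was 0.03 ± 0.05. Lower, higher and not passing genes thus alternated along the segment.

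**Figure D4:**
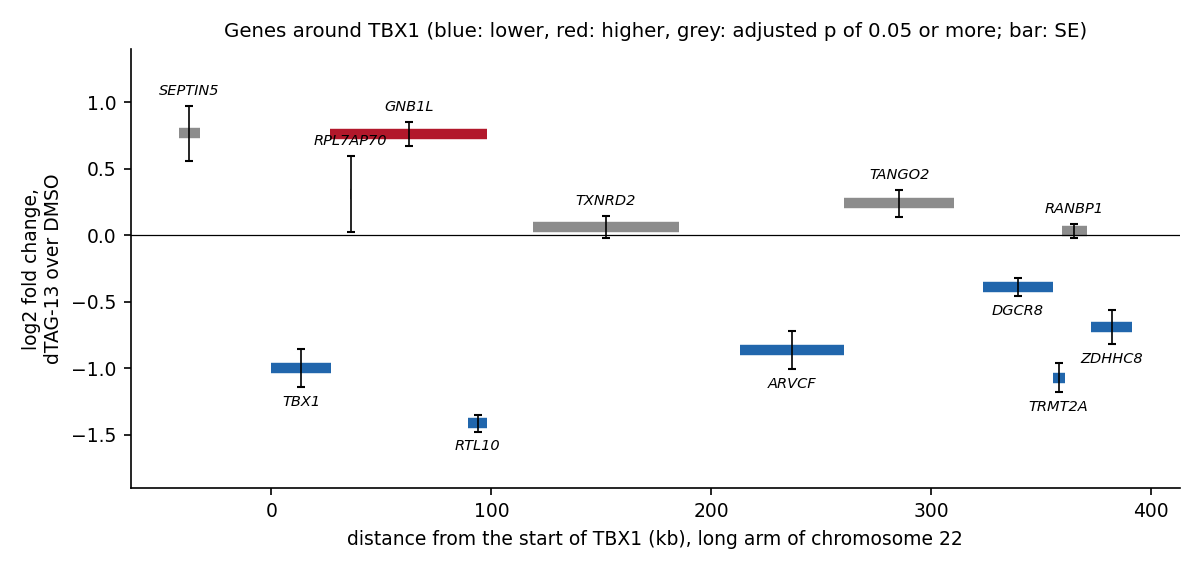
Log2 fold change (dTAG-13 over DMSO) ± SE of 12 of the 13 tested genes around TBX1 against distance in kb from the start of TBX1, with each gene drawn over its length. RTL10 at −1.41 lies within GNB1L at 0.76, and TXNRD2 and RANBP1 lie near 0.

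Exon bins give the part of each gene's reads that falls in each annotated piece, and their usage is the log2 fold change of a bin relative to the rest of its gene. Of 184300 bins tested with edgeR's diffSpliceDGE, 175 had higher usage (0.095%) and 66 lower usage (0.0358%) under the same thresholds, with 650 (0.353%) and 685 (0.372%) with the replicate block. Bins that lie only in transcripts annotated as retained introns made up 104 of the 175 with higher usage, or 3.94% of the 2640 tested, against 2 lower (0.0758%), and 175 higher and 9 lower with the block. Bins only in transcripts annotated for nonsense-mediated decay had 8 of 887 higher (0.902%). Bins of coding transcripts had 54 of 174064 higher (0.031%) and 59 lower (0.0339%). With the block 423 coding bins were higher, more than the 175 of retained introns, and 659 lower. The number of retained-intron bins with higher usage was 48 without DMSO replicate 1 and 97 without DMSO replicate 3. Over all 2640 bins the median usage change was 0.09. All retained-intron bins together took 0.276%, 0.269% and 0.280% of bin counts with dTAG-13, against 0.253%, 0.256% and 0.257% with DMSO (exact 2-sided permutation test p = 0.1, the smallest that 3 against 3 allow).

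Of the introns with the smallest p, a pair of short ones is shown whole with the GT and AG of the splice sites in capitals (GRCh38). The PRRC2A sequence is the last of 30 introns (chr6:31637325-31637445, plus strand, 121 bases), and the IFRD2 sequence is intron 10 of 11 (chr3:50288505-50288582, minus strand, 78 bases).
PRRC2A: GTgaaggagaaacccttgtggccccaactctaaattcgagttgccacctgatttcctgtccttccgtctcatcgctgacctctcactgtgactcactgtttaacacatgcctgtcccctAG
IFRD2: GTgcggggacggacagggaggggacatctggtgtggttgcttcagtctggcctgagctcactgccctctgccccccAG
For longer introns the 5′ splice site is shown with 3 exon and 6 intron bases, and the 3′ splice site with 20 intron and 3 exon bases.
TBX1 intron 2, 5′ site: ccgGTgagc
TBX1 intron 2, 3′ site: cccaccccgtgccgctccAGgta
POLG intron 6, 5′ site: gagGTgagg
POLG intron 6, 3′ site: tcctggtgtttgcctccaAGgtg
SRRM2 intron 12, 5′ site: gagGTgagt
SRRM2 intron 12, 3′ site: ggtcctactgtgttccccAGgtc

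The PRRC2A bin, which is this whole intron, had 139, 182 and 176 reads with dTAG-13, against 23, 38 and 32 reads with DMSO, or 1.01 ± 0.14% of the gene's bin reads with dTAG-13 and 0.189 ± 0.054% with DMSO. Its usage rose (log2 2.42 ± 0.19, adjusted p = 4.77e-23), while the gene, a proline-rich coiled-coil protein, did not pass as a whole (−0.21, adjusted p = 0.305). The IFRD2 bin, which is most of its intron, had 40, 47 and 54 reads with dTAG-13, against 2, 4 and 6 reads with DMSO (3.19 ± 0.31, adjusted p = 1.29e-12), and the gene as a whole had a log2 fold change of 0.19 (adjusted p = 0.315). In all, 6 retained-intron bins of IFRD2 rose, and its bin at 50289264 to 50289356, a coding exon, fell (41, 43 and 35 reads with dTAG-13, against 73, 88 and 73 with DMSO, −1.30 ± 0.18).

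In TBX1 the first part of intron 2 (19763343 to 19763702) had 30, 42 and 51 reads with dTAG-13, against 8, 10 and 12 reads with DMSO, although the gene itself fell. Their share of the gene's reads was 7.79 ± 1.25% with dTAG-13 and 0.923 ± 0.13% with DMSO (3.06 ± 0.31, adjusted p = 6.04e-10). POLG, the mitochondrial DNA polymerase, had 37, 36 and 49 reads in its intron 6 with dTAG-13, against 5, 8 and 6 with DMSO (2.83 ± 0.35, adjusted p = 1.04e-09). ISYNA1, inositol-phosphate synthase, had 76, 99 and 141 reads in part of intron 5 with dTAG-13, against 15, 31 and 31 with DMSO (1.66 ± 0.22, adjusted p = 8.24e-08). SYVN1, an E3 ligase of the endoplasmic reticulum, had 145, 163 and 212 reads with dTAG-13 in a bin of the retained-intron class, against 116, 113 and 130 with DMSO. That bin lay in no intron of the canonical transcript. Its own log2 fold change was 0.34, while the gene fell (−0.94, adjusted p = 0.000183). The bin's share of the gene's reads was 12.8 ± 1.51% with dTAG-13 and 5.58 ± 0.408% with DMSO. TMEM147 (2.49 ± 0.28) and a bin in P4HB that is part of coding transcripts (2.28 ± 0.27) completed the bins named by smallest p. In each of the retained-intron bins given here the lowest dTAG-13 library lay above the highest DMSO library, which is of little weight in bins picked by p. By share of the gene's reads, the groups did not overlap upward in 16.9% and downward in 4.36% of all retained-intron bins tested.

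Bins with lower usage were 66 in the unblocked fit, 17, 22 and 170 without DMSO replicate 1, 2 or 3, 19 and 34 without dTAG-13 replicate 2 or 3, and 685 with the block, against 650 with higher usage. CDCA3, a trigger of mitotic entry, lost reads in an exon of its canonical transcript (chromosome 12, 6849323 to 6849413), with 23, 24 and 23 reads with dTAG-13, against 130, 87 and 95 with DMSO (−1.89 ± 0.22, adjusted p = 1.17e-09). Coding bins of COASY (−1.52 ± 0.17), DIDO1 (−1.16 ± 0.16), GFI1B, an erythroid repressor (−0.996 ± 0.17), MRPL55 (−1.86 ± 0.34) and UNK (−2.29 ± 0.43) were used less. UNK lost its call without dTAG-13 replicate 1 (adjusted p = 0.0824) and without DMSO replicate 3 (0.0641). SRRM2 ran against the other introns: a bin in its intron 12 (2769628 to 2769861) had 12, 8 and 7 reads with dTAG-13, against 24, 21 and 23 with DMSO (−1.94 ± 0.34, adjusted p = 0.000158), while its RNA as a whole rose. It was 1 of the 2 retained-intron bins with lower usage.

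**Figure D5:**
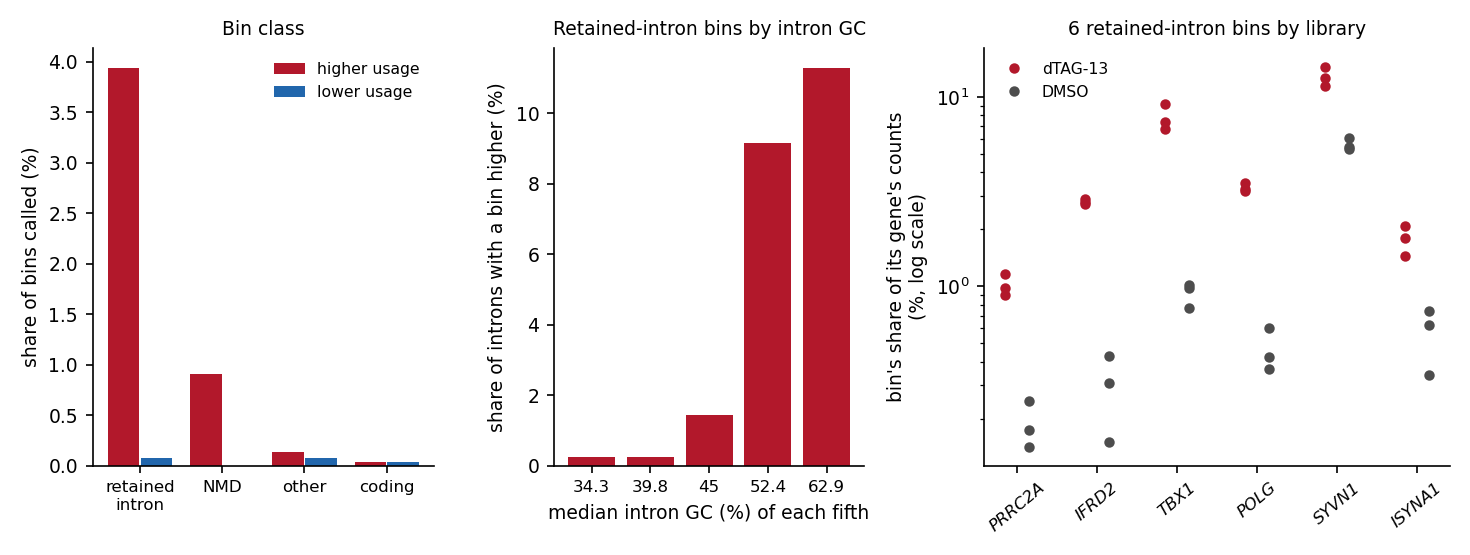
Left, share of bins with higher and lower usage by bin class in percent; middle, share of retained introns with higher usage by quintiles of intron GC content; right, each of 6 retained-intron bins as a share of its gene's counts (%) per library on a log axis, dTAG-13 left of DMSO. Retained-intron bins have the highest share (3.94%), and 11.3% of the GC-richest introns had higher usage. The SYVN1 bin lies in no intron of the canonical transcript.

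Higher intron usage was concentrated in short, GC-rich introns. The bins that could be placed in an intron fell in 2077 introns, of which 93 in 74 genes held a bin with higher usage. These had a median length of 330 bases and 57.5% GC, against 995 bases and 45.0% GC over all tested. By quintiles of intron GC the share with higher usage was 0.24%, 0.241%, 1.45%, 9.16% and 11.3%, and by quintiles of length 9.62%, 5.54%, 4.58%, 1.93% and 0.721% from short to long. All 93 had GT at the 5′ end and AG at the 3′ end. The first 5 bases were GTGAG in 39.8% of them (37 introns) and GTAAG in 8.6% (8), against 26.7% and 23.7% of all tested. The pyrimidine share before the 3′ splice site had a median of 76.5% in both. Bins under 50 reads on average carried most calls: above that minimum 11 retained-intron bins were higher, of 33 bins in all.

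Most of the genes that hold these introns did not pass as genes, and those that passed were nearly all lower. Of 77 genes with a retained-intron bin of higher usage, 20 were lower as genes, 1 was higher and 56 did not pass, with a median log2 fold change of −0.12. The share of lower genes was thus above the 3.09% of all genes tested, but gene and bin reads are not independent. Most had 1 such bin (58 genes), and 19 had 2 or more. PRDX2, a red cell peroxiredoxin, and UROD, an enzyme of haem synthesis, had 4 each, and neither passed as a gene (PRDX2 −0.04, UROD −0.17). MED15 and PPP1R37, which fell and rose as genes, had 2 each. These genes were named after their values were seen.

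The response was set beside that to the other K562 treatment of the series, an inhibitor of DNMT1 (DNMT1i, 10 µM for 3 days against DMSO), in wild-type cells that share no sample with it. In a fit of the 12 libraries 505 of 15171 genes responded more positively to dTAG-13 (3.33%) and 787 more negatively (5.19%) by the test of the difference, and these counts ranged from 265 to 739 and from 525 to 1061 with 1 library left out. RTL10 was among those that differed (difference −1.40 ± 0.10, adjusted p = 1.58e-06), with a DNMT1i log2 fold change of 0.01. The smallest p belonged to genes that DNMT1i raised and dTAG-13 did not change past the test, namely GCNA (difference −6.83), TRBC2 (−5.27), FADS2 (−2.59) and DCAF4L1 (−6.55). Treatment time and clone differ between the treatments and cannot be told apart from the compound.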

How the data were processed

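RNA from 6 knock-in K562 libraries (n = 3 per treatment) was poly(A)-selected, and the authors removed duplicates with UMI-tools 1.1.1, trimmed with cutadapt 2.7, aligned to hg38 with STAR 2.6.0 and deposited raw counts per gene and per exon bin made with HTSeq; the strand setting was not found in the sources. Of the authors' table of exon results, only bin positions were used, and its fold changes and p-values were not; 18 further columns of per-sample values were left out.

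Genes were tested with edgeR 4.0.16 (quasi-likelihood test, TMM, low counts filtered, Benjamini-Hochberg adjustment over all genes) in R 4.3.3, and bins with diffSpliceDGE of edgeR, in place of DEXSeq. DESeq2 1.42.0, limma 3.58.1, other scalings, filters, thresholds and left-out libraries were alternatives. Single values were compared by exact permutation. Depth is given in the report; unassigned reads were 20.2% to 21.6% of a library. Replicates are separate cultures of 1 clone. The titles number the replicates but do not state pairs. In the block, which the main fits leave out, same numbers were taken as pairs. Deviations from the group means of same-numbered libraries correlated at 0.203, 0.525 and 0.799. However, dTAG-13 replicate 1 correlated better with DMSO replicate 2 (0.696), so the pairing is not established. Annotation came from GENCODE 44 and sequences from RefSeq (GRCh38.p14) or the genome.

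Named genes were the 10 largest rises and falls among genes past the test, averaging at least 1 log2 CPM, with groups that did not overlap, up to 4 members of each of 31 lists by p, the bins and differences with the smallest p, and SON, SRRM2, MALAT1, NEAT1 and CTCF. Others, such as further list members, SRSF1, INSIG1, SREBF2, HBG2 and the genes around TBX1, were chosen after their values were seen. Lists and members were chosen with earlier results of these data known. On simulated counts of this comparison over 13923 genes, 57.1% of genes changed by 0.5 and 82.8% of those changed by 1 on the log2 scale were recovered. Some genes that met these rules are not reported here.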

Additional observations from a re-analysis of the deposited data

How the results depend on the processing

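No bin named by the rules above changed direction under the alternatives run on it. No gene named by them did so where it passed in the main fit or in the alternative. Direction was not followed for genes that passed in neither, and SRSF1, INSIG1, SREBF2 and HBG2 were not in this check. Upper-quartile scaling turned the balance of lower and higher genes. With the replicate block, in which libraries are paired by number, 1110 genes were lower and 837 higher, 6.78% of the GC-poorest and 17.05% of the GC-richest quintile were lower, 650 bins had higher and 685 lower usage, and 175 and 9 of these were retained-intron bins; it ended no call of a named gene or bin and 39 more named genes passed. A threshold of 0.5 left 261 lower and 127 higher genes, upper-quartile scaling gave 346 higher, no filter gave 509 higher, and DESeq2 put 1.99% of the GC-poorest quintile lower. With at least 50 counts on average 33 bins were higher and 17 lower, 11 and 0 of them in retained introns, and 42 bins fell in usage by more than 1. The causes were not tested.

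Leaving out 1 library gave 132 to 757 lower and 46 to 296 higher genes, 0.107% to 1.78% lower in the GC-poorest and 2.95% to 15.9% in the GC-richest quintile, 73 to 219 bins higher and 17 to 170 lower, and 48 to 97 and 1 to 3 for retained introns. The difference from DNMT1i ranged from 265 to 739 genes higher and 525 to 1061 lower. Among log2 fold changes of named genes under all alternatives, 1728 kept their side of the threshold, 90 came to pass and 224 no longer passed, most often without DMSO replicate 1 (51) or dTAG-13 replicate 2 (50). At this depth changes of 0.5 on the log2 scale are missed often.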
